A study of Mus musculus with 64 samples.

Results

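Transposon insertions were examined in 9 genes that regulate the germinal centre B cell and its passage to the plasma cell: Pou2f2, Pou2f1, Pou2af1, Irf2, Irf4, Irf8, Bcl6, Prdm1 and Xbp1. They were taken by name from the gene column of the deposited insertion table, in which 262 of 385883 lines named a member and 8 of the 9 genes had a line. The table named 17104 genes in all. Of the 262 lines, 260 lay on the target motif of their transposase and were counted as insertions, and the other 2 had no such motif within 5 bp. Irf8 was the gene without a line of its own, for a reason of naming that is described with its values.

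The samples were DNA of diffuse large B cell lymphomas and of tails from 64 mice, 1 sample each, in 4 groups. There were 30 tumours and 12 tails of PB mice, and 11 of each tissue of SB mice. The PB mice carried ITP transposon copies together with a constitutive PiggyBac (PB) transposase knocked in at Rosa26, and came from a cohort described earlier. The SB mice came from crosses of Rosa26SB/+;Blm m3/m3 animals with either of the transposon lines ITP1-C and ITP2-M, each also Blm m3/m3, and were triple or double transgenic, with the Sleeping Beauty (SB) transposase at Rosa26. Transposon and genome junctions were amplified and sequenced, and each line gave a position, a strand and a number of reads. The background of the mice was a mixture of C57BL/6, 129Sv and FVB. The Blm m3 allele was given for the SB crosses. Whether the PB mice carried it was not given in the sources used here. Because the transposase knock-ins are constitutive, transposons could move in every tissue, and the tails were the control tissue. The labels named the tumour site in short form, such as SPLEEN, MES MASS, MES LN, THOR LN and, among the SB tumours, THYMUS. The diagnosis rested on histology and immunohistochemistry. The measurement was of DNA, so no marker gene was available to check the diagnosis here.

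PiggyBac inserts at TTAA and Sleeping Beauty at TA, and the ITP transposon was built to inactivate the gene it enters. In a germinal centre, B cells proliferate and mutate their antibody genes under Bcl6 and its partners. Exit to the plasma cell passes through Irf4, Prdm1 and Xbp1, while Pou2f1 and Pou2f2 bind the octamer motif of immunoglobulin promoters. Pou2f2 and the co-activator Pou2af1 are needed for a normal germinal centre response.

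After positions on the donor and sex chromosomes were left out, the PB tumours held 156899 insertions (757 to 10800 per tumour), the PB tails 48124, the SB tumours 43813 and the SB tails 50789. The median number of reads on them was 136578 per PB tumour, 122874 per PB tail, 106996 per SB tumour and 104091 per SB tail. The members held 214 insertions in the PB tumours, or 1.36 per 1000, against 19 in the tails (0.395 per 1000). For SB they held 18 in tumours (0.411 per 1000) and 9 in tails (0.177 per 1000). By gene name, so without Irf8, the number of members hit ran from 0 to 6 per PB tumour with a median of 3, and from 0 to 3 per PB tail with a median of 1.5. It ran from 0 to 3 per SB tumour and from 0 to 2 per SB tail, with a median of 1 in both. Most of the PB tumour insertions lay in Pou2f1, Pou2f2, Irf2 and Pou2af1.

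Each gene's insertions per sample were compared between tumours and tails with edgeR's quasi-likelihood test, with Benjamini-Hochberg adjustment over all genes that had at least 10 insertions over the samples of the system. In PB mice, 147 of 3298 genes passed an adjusted p of 0.05 (4.46%), of which 71 were higher in tumours (2.15%) and 76 lower (2.3%). With TMM factors in place of the total of insertions, 171 genes passed, and the share of higher genes among them rose from 48.3% to 73.7%. The median log2 fold change of all genes tested was 0.20 with the totals and 0.40 with TMM, and the members' values below are to be read against it. Of the members, 5 had enough insertions to be tested. Pou2f2 and Pou2f1 were higher in tumours, and Pou2af1, Irf2 and Prdm1 did not pass. Tumour and tail differ in cell type as well as in selection, and PB is known to favour open, transcribed chromatin, so that these cannot be told apart in this comparison.

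**Figure D1:**
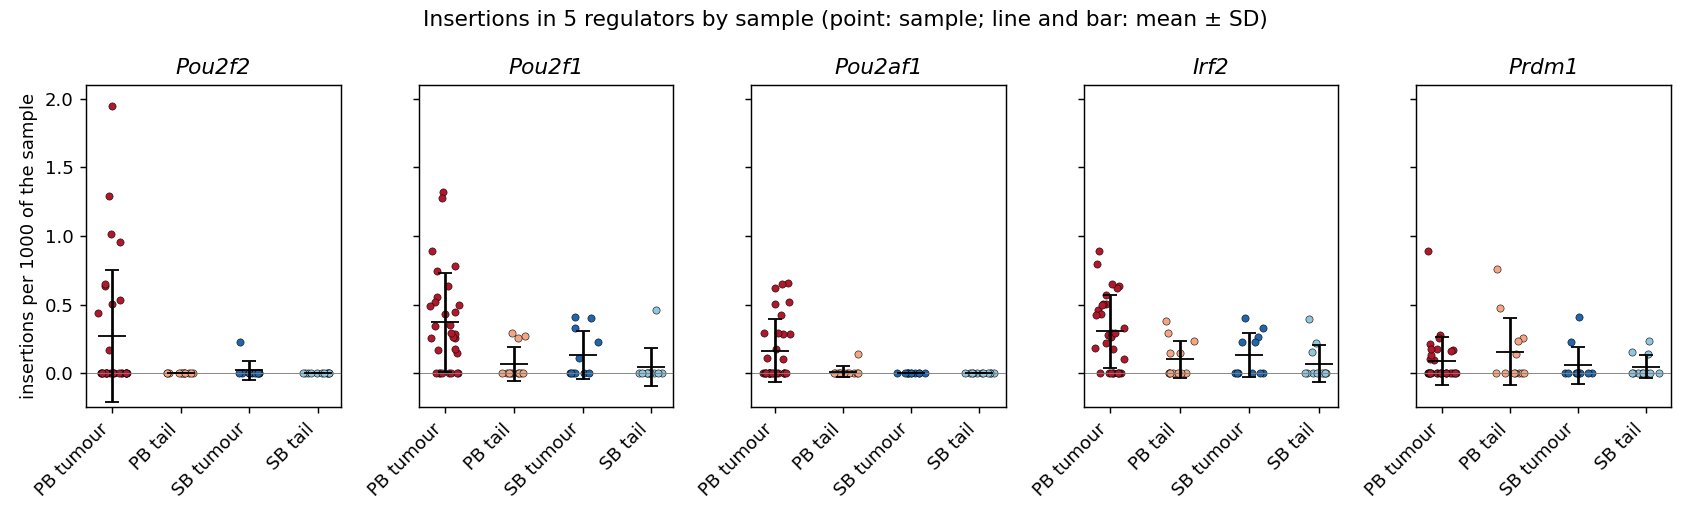
Insertions in 5 regulators per 1000 insertions of the sample (vertical axis), by tissue in PB mice (tumours n = 30, tails n = 12) and SB mice (n = 11 each). Points are samples, and horizontal lines with bars are means ± SD. Pou2f2 points rise above 0 in 10 PB tumours and in no PB tail, and the highest is 1.95 in tumour 23.

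Pou2f2 (Oct-2) is the B cell member of the octamer-binding family. It lies at chr7:25087350-25180797 (GRCm38, minus strand). It held 52 insertions in 10 of 30 PB tumours (33.3%, exact 95% interval 17.3 to 52.8) and none in 12 PB tails. The number per tumour ran from 0 to 15 with a median of 0, and the median among the 10 tumours hit was 3.5. Tumour 23 held 15 insertions, tumours 8 and 11 held 9 each, tumour 20 held 6 and tumour 16 held 4. The groups overlapped, since 20 tumours were at 0 like the tails. Per 1000 insertions the PB tumours had 0.271 ± 0.483 (SD, n = 30). Pooled over the group, the level was 0.331 per 1000. It was 5.32-fold the level of 3 insertions over the PB tails, taken as the limit of their count of 0. Pooling leaves out the spread between mice, and tumour 23 held 15 of the 52 insertions, so the fold is not a lower bound over mice. The fitted log2 difference was 3.76 (edgeR, adjusted p = 0.000245), the 18th smallest p of the 3298 genes. With no insertion in the tails, the counts do not fix the size of this log2 difference or of those that follow for Pou2f2. Without tumour 23 the adjusted p was 0.00153 and the log2 difference 3.38. The call was lost in DESeq2 (log2 difference 3.19, adjusted p = 0.158), in Fisher's exact test of samples hit (two-sided, p = 0.0400, adjusted p = 0.346), which called 0.212% of genes, and among samples with joined names (edgeR, log2 difference 3.73, adjusted p = 0.108), and passed among those with separated names (log2 difference 3.96, adjusted p = 0.0110). That value rests on tumour 23, which held 15 of the 16 insertions of the 8 tumours with separated names.

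The Pou2f2 insertions of the PB tumours lay between 6243 bp upstream and 34044 bp downstream of the start of transcript NM_001163554.1. They did not fall in an exon. Of the 52, 21 were in intron 5, 19 in intron 1, 8 in intron 4, 2 in intron 7, 1 in intron 6 and 1 upstream of the transcript. The upstream insertion was still inside the annotated gene, which extends beyond that transcript. The strand was that of the gene for 25 and the opposite for 27. They used 33 different TTAA sites, and 12 sites were hit in more than 1 tumour. Those 12 held 31 of the 52 insertions (59.6%). Over all PB tumour insertions, in genes or outside them, 7.57% were at a site hit in more than 1 tumour. Pou2f2 has 265 TTAA sites. The part of insertion density in its share of shared sites, and in those of the other members, was not tested. At 7 of the 12 Pou2f2 sites, the tumours differed in the strand of the transposon. The 6 sites hit in 3 or more tumours are shown because they carry this repetition, on the plus strand of GRCm38 with the TTAA in capitals. The number in each name is the first base of the TTAA on chromosome 7.
Pou2f2 site 25114150: gactggtgccTTAAtgagaacagg
Pou2f2 site 25118102: agaaaggatgTTAAaagactttct
Pou2f2 site 25124302: cagattggccTTAAggatccctac
Pou2f2 site 25128978: tccccttgtaTTAAcctgctgagc
Pou2f2 site 25129208: tccagatttaTTAAaacatgtact
Pou2f2 site 25129561: gccttgtcccTTAAattccaccac

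The site at 25129561, in intron 1 at 2899 bp from the transcript start, was hit in 4 tumours (16, 20, 21 and 23), with 3 insertions on the strand of the gene and 1 opposite. The other 5 were hit in 3 tumours each. At 25128978 all 3 insertions ran opposite to the gene, and at 25129208 all 3 ran with it. The 12 shared sites involved 8 tumours. Tumour 8 was at 8 of them, tumour 23 at 6, tumour 11 at 5, tumour 20 at 4, and tumours 1, 10, 16 and 21 at 2 each. Over all insertions, the 18 pairs of tumours that shared a Pou2f2 site had between 0.355% and 0.862% of the smaller sample's sites in common (median 0.614%), against 0% to 1.40% (median 0.389%) over all 435 pairs of PB tumours. Whether carry-over between libraries added to the shared sites was not tested.

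The reads on Pou2f2 insertions were moderate. They ran from 2 to 378 with a median of 11, and 28 of the 52 insertions had at least 10 reads. The most covered, with 378 reads in tumour 20, was the 60th of that tumour's insertions by reads, and the best rank in any tumour was 45, in tumour 16. The tumours hit were deeper, with a median of 5820.5 insertions against 3867 in the 20 others, and the part of depth in the number of samples hit was not tested. By site label, Pou2f2 was hit in 5 of 9 PB tumours labelled MES MASS, 3 of 6 labelled MES LN, 1 of 6 labelled SPLEEN and 1 of the 9 with another label. In SB mice, 1 tumour (11) held 2 insertions and the other 10 tumours and 11 tails had none, too few to be tested.

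Pou2f1 (Oct-1) is the broadly expressed relative of Pou2f2. It lies at chr1:165865150-166002749 (GRCm38, minus strand) and has 1179 TTAA sites, the most of the 9 genes. It was the member hit in most PB tumours, with 68 insertions in 22 of 30 (73.3%, exact 95% interval 54.1 to 87.7), against 4 insertions in 3 of 12 PB tails. The number ran from 0 to 7 per tumour with a median of 1, and from 0 to 2 per tail with a median of 0. The highest tail (0.294 per 1000) lay within the range of the tumours, so the groups overlapped. Per 1000 insertions the level of the tumours was 0.370 ± 0.359 (SD, n = 30) and that of the tails 0.0686 ± 0.124 (SD, n = 12). The log2 difference was 2.05 (SE 0.57, a 4.13-fold change), with an adjusted p of 0.0139 (edgeR).

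All of the PB tails with a Pou2f1 insertion had separated names. Among joined names, 17 of 22 tumours and none of 5 tails were hit (edgeR, adjusted p = 0.0287), and among separated names 5 of 8 tumours and 3 of 7 tails (log2 difference 1.49, adjusted p = 0.323). With the name form in the model the adjusted p was 0.0140. The call was also lost when genes with fewer than 10 insertions were kept, where more genes entered the adjustment and the log2 difference stayed at 2.05 (edgeR, adjusted p = 0.0981), and in Fisher's exact test of samples hit (two-sided, p = 0.00608, adjusted p = 0.254). With insertions assigned to the RefSeq gene body the log2 difference itself fell to 1.46, and the call was lost (edgeR, adjusted p = 0.0712). The table names a stretch of that body Cd247, which adds 3 insertions in tumours and 3 in tails. The 22 tumours hit had a median of 5898 insertions, and the 8 that were not hit had 757 to 3945.

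In the PB tumours, 49 of the 68 Pou2f1 insertions were in intron 1 and 10 in intron 2, with 7 in introns 5, 13, 14 and 15 and 2 in exons 4 and 13. As many lay with the gene as against it (34 each). They used 66 different sites, of which 2 were shared between tumours, holding 5.88% of the insertions, close to the 7.57% of all insertions. Most had few reads, with a median of 5 in tumours. A line of tumour 7 off the motif, with 1793 reads, was not among those counted. The insertions of tumours 8 and 19 stood apart. The first had 2725 reads, 1.81% of the reads of tumour 8, and was 3rd among its insertions. The second had 785 reads, 0.950% of the reads of tumour 19, and was 8th. Both were in intron 1 against the gene, at 69198 and 50002 bp from the transcript start, and are shown as the most covered insertions of this gene, on the plus strand of chromosome 1.
Pou2f1 site 165933436: aaattctgatTTAAcgatgggaag
Pou2f1 site 165952632: atgttgccctTTAAtgagttccta

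In SB mice Pou2f1 held 6 insertions in 5 of 11 tumours and 2 in 1 of 11 tails. These were 0.134 ± 0.174 and 0.0417 ± 0.138 per 1000 (SD, n = 11 each), below the minimum of insertions for the SB test. A test of whether the tumour-to-tail difference itself differed between PB and SB gave a log2 value of 0.73 (edgeR interaction, p = 0.711, adjusted p = 0.9998). The value was 1.59 with DESeq2 and -0.23 with RefSeq bodies, and passed in neither. Of 4280 genes none passed this interaction test after adjustment in edgeR or DESeq2, and 391 and 114 had an unadjusted p under 0.05. For Pou2f2 and Pou2af1 a group without insertions left that test without meaning.

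Pou2af1 (OCA-B) binds Oct-1 and Oct-2 on octamer sites. It lies at chr9:51213690-51240079 (GRCm38, plus strand). It held 25 insertions in 13 of 30 PB tumours (43.3%, exact 95% interval 25.5 to 62.6), 1 insertion in 1 of 12 PB tails and none in the SB samples. The number ran from 0 to 4 per tumour and from 0 to 1 per tail, with medians of 0, so the groups overlapped. Per 1000 insertions the level of the tumours was 0.165 ± 0.230 (SD, n = 30) and that of the tails 0.0113 ± 0.0392 (SD, n = 12). The log2 difference was 2.0 (SE 0.72), which did not pass the test (edgeR, adjusted p = 0.0813). It passed with TMM factors (adjusted p = 0.0458) and among insertions of at least 10 reads (adjusted p = 0.0306), and over its edgeR alternatives the adjusted p ran from 0.0306 to 0.565.

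The positions in Pou2af1 lay in the front part of the gene. How its 151 TTAA sites are spread was not set against these positions. All 25 insertions of the PB tumours and the 1 of the tail lay in intron 1, between 857 and 14452 bp from the start of a gene of 26390 bp, downstream of the first coding base at 96 bp. Of the 19 sites used, 4 were shared and held 10 of the 25 insertions (40%). At each of the 4 the tumours had the transposon on the same strand. The largest read numbers of any member were here. In tumour 14 an insertion with 7037 reads made up 6.99% of the sample's reads and was the 2nd of its insertions. In tumour 23 an insertion with 3191 reads made up 1.65% and was the 9th. Both ran with the gene, and they are shown first, followed by the sites hit in 3 tumours each (5, 9 and 10 at the first, 10, 23 and 28 at the second), on the plus strand of chromosome 9.
Pou2af1 site 51218339: aaatataattTTAAgggtagttaa
Pou2af1 site 51226316: taaatatcttTTAAgcatcacctt
Pou2af1 site 51215415: ataaactctcTTAAactgtctttt
Pou2af1 site 51225715: gatgatttcaTTAAagtctgcata

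The median of the 25 insertions was 13 reads. By site label, Pou2af1 was hit in 6 of 9 PB tumours labelled MES MASS, 3 of 6 labelled MES LN, 1 of 6 labelled SPLEEN and 3 of the 9 with another label.

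**Figure D2:**
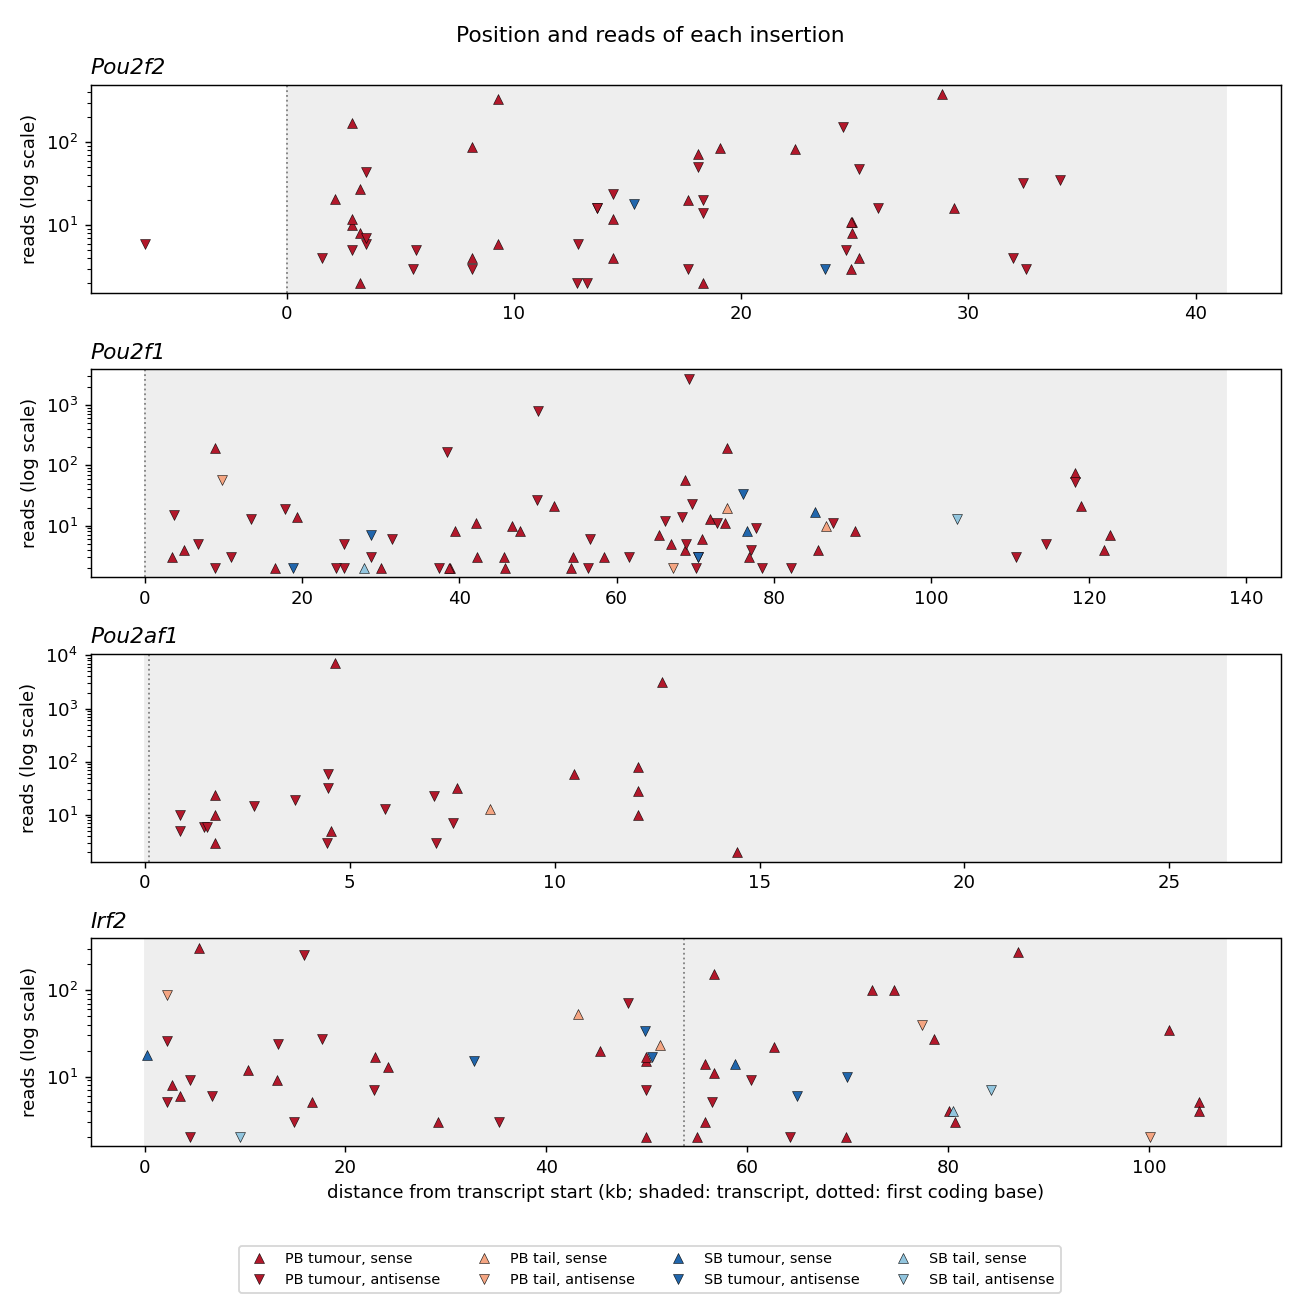
Distance of each insertion from the transcript start (horizontal axis, kb) against its reads (vertical axis, log scale) in Pou2f2, Pou2f1, Pou2af1 and Irf2. Upward triangles run with the gene and downward triangles against it, colours give the group, shading gives the transcript and the dotted line the first coding base. In Pou2af1 all points lie within 14452 bp of the start, and the highest points are 7037 and 3191 reads.

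Irf2 is a member of the interferon regulatory factor family, known to oppose Irf1 at interferon-responsive genes. It lies at chr8:46739745-46847458 (GRCm38, plus strand). It held 45 insertions in 21 of 30 PB tumours (70%) and 5 in 5 of 12 PB tails. The number ran from 0 to 6 per tumour with a median of 1, and from 0 to 1 per tail with a median of 0, and the groups overlapped. Tumours had 0.304 ± 0.267 (SD, n = 30) per 1000 insertions and tails 0.100 ± 0.137 (SD, n = 12). The log2 difference of 1.28 (SE 0.57) did not pass the test (edgeR, adjusted p = 0.163), nor did it under the edgeR and DESeq2 alternatives, where the adjusted p ran from 0.0695 to 0.546. In SB mice, Irf2 was the single member that could be tested. Of 1121 genes, 9 passed there (0.803%). Irf2 had 7 insertions in 5 of 11 SB tumours and 3 in 3 of 11 SB tails, a log2 difference of 1.07 (SE 0.72) that did not pass (edgeR, adjusted p = 0.673). The interaction of system and tissue gave a log2 value of 0.18 (edgeR, p = 0.959). This value was 0.80 with DESeq2 and -1.08 among insertions of at least 10 reads, and passed in neither.

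In the PB tumours, 26 of the 45 Irf2 insertions were in intron 1, ahead of the start codon in exon 2, and 9 in intron 2, with 10 in introns 5, 6 and 7. Of 38 sites, 7 were shared by 2 tumours each and held 14 of the 45 insertions (31.1%). Of the 45, 29 ran with the gene and 16 against it. By tumour, 11 had more insertions with the gene, 3 had more against it and 7 were tied (exact two-sided sign test, p = 0.0574, adjusted p = 1). Among 3399 genes tested for strand in PB tumours and 302 in SB tumours none passed after adjustment, and 91 and 8 had an unadjusted p under 0.05. The other 4 members tested in PB tumours were near balance, with 9 tumours each way for Pou2f1, 3 and 4 for Pou2f2, 5 and 6 for Pou2af1, and 6 and 5 for Prdm1. By each tumour's most covered insertion, the excess of Pou2f2 tumours with the gene's strand was 6 in place of -1. No gene passed in that setting. Reads on Irf2 insertions had a median of 9 and a highest value of 310.

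Irf4, which acts early in plasma cell formation, lies at chr13:30749233-30766981 (GRCm38, plus strand). It held 3 insertions, each in a different PB tumour (1, 4 and 26) and each against the gene, with 3 to 16 reads. The other 3 groups had none. The gene has 85 TTAA sites, and its insertions were below the minimum for the test against tails.

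No line named Irf8, which acts beside Pu.1 in B cells and in germinal centre cells. Its RefSeq body at chr8:120736358-120756694 (GRCm38, plus strand) was not empty. It held 5 insertions in 4 of 30 PB tumours and 3 in 2 of 11 SB tails, all of which the table names Gm20388, and none in the PB tails or the SB tumours. Tumour 20 held 2, with 6 reads in intron 1 and 24 in intron 2, and tumour 30 held 1 in intron 2 with 8 reads. Tumours 18 and 19 had the same position in exon 3 at 7361 bp from the start, against the gene, with 25 and 33 reads.

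Bcl6, the repressor that maintains the germinal centre state, lies at chr16:23965050-23988866 (GRCm38, minus strand). It held 5 insertions in 5 of 30 PB tumours and 3 in 3 of 12 PB tails, and 1 each in the SB tumours and the SB tails. In the PB tumours the reads ran from 2 to 9, and in the PB tails from 6 to 61. The most covered Bcl6 insertion, with 118 reads, was in SB tail 11. The TTAA at 23984657, in intron 1, was hit in tumours 9 and 29 and in PB tail 6, with both strands among them. It is shown because it was used in both tissues.
Bcl6 site 23984657: cctgaaagtaTTAAgagagactcg

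Prdm1 encodes Blimp-1, the repressor that closes the B cell programme on the way to the plasma cell. It lies at chr10:44437174-44528558 (GRCm38, minus strand). It held 14 insertions in 11 of 30 PB tumours (36.7%) and 6 in 5 of 12 PB tails (41.7%), with 2 in the SB tumours and 3 in the SB tails. The number ran from 0 to 3 per PB tumour and from 0 to 2 per PB tail, with medians of 0. Per 1000 insertions the level of the tumours was 0.0881 ± 0.176 (SD, n = 30) and that of the tails 0.155 ± 0.244 (SD, n = 12). The log2 difference of -0.40 (SE 0.58) did not pass (edgeR, adjusted p = 0.781), and its sign turned among insertions of at least 10 reads (0.45) and among separated names (0.22). Of the 14 insertions, 6 lay upstream of transcript NM_007548.4, up to 66396 bp away, as did 5 of the 6 in tails and all 5 in SB samples. These upstream positions were still inside the annotated gene, which extends beyond that transcript. Tumour 29 held 3, in introns 2 and 3, and the largest of these had 733 reads, the most of any Prdm1 insertion, and was 70th in its sample. Its TTAA, at 44450061, was also hit in PB tail 10, on the opposite strand and with 5 reads. Another was in tumour 11, with 368 reads in intron 2.

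Xbp1, the transcription factor of the plasma cell's secretory programme, is the smallest of the genes, at chr11:5520641-5525993 (GRCm38, plus strand) with 20 TTAA sites. It held 2 insertions, in PB tumours 10 and 20, with 8 and 3 reads. It had none in the other groups.

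**Figure D3:**
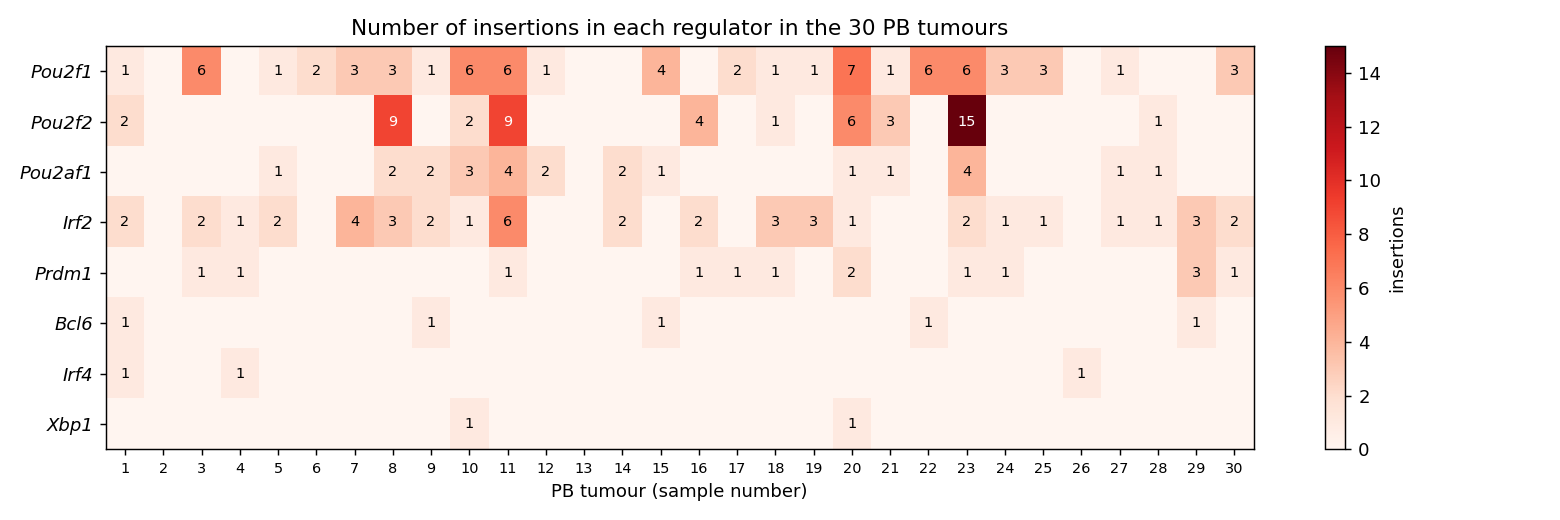
Number of insertions in each regulator (rows) in each of the 30 PB tumours (columns, numbered as samples), with the count written where it is above 0. The highest count is 15, for Pou2f2 in tumour 23, and 2 tumours have no insertion in any of the 8 genes.

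The number of members hit varied between tumours. By gene name, so without Irf8, tumour 20 had insertions in 6 of them, and tumours 1, 10, 11 and 23 in 5. Tumours 2 and 13 had none. Among the 5 members that were tested, the 10 pairs were hit together in 3 to 16 tumours. Irf2, hit in 70% of all 30, was hit together with Pou2f1 in 16 (72.7% of the tumours with Pou2f1 and 76.2% of those with Irf2), with Pou2af1 in 10 (76.9% and 47.6%), with Prdm1 in 10 (90.9% and 47.6%) and with Pou2f2 in 9 (90% and 42.9%). Pou2f1, hit in 73.3%, was hit together with Pou2af1 in 11 (84.6% of the tumours with Pou2af1 and 50% of those with Pou2f1), with Pou2f2 in 8 (80% and 36.4%) and with Prdm1 in 8 (72.7% and 36.4%). Pou2f2 was hit together with Pou2af1 in 7 (70% of the tumours with Pou2f2 and 53.8% of those with Pou2af1) and with Prdm1 in 5 (50% of the tumours with Pou2f2 and 45.5% of those with Prdm1). Pou2af1 and Prdm1 were hit together in 3 (23.1% and 27.3%). The depth of the tumours varied beside these counts. Tumour 11, with 9447 insertions, held 26 in the members and tumour 23, with 7698, held 28, whereas tumour 3, the deepest at 10800, held 9. Tumour 13, the shallowest at 757, was one of those with none.

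For Pou2f1, the genes with the most similar set of PB tumours hit, by the share of tumours hit in both among those hit in either, were Cux1 (0.875, hit in 23 tumours), Baz2b (0.846, hit in 26) and Auts2 (0.84, hit in 24). This was over 30 tumours and 2009 genes hit in at least 10 tumours, whose median was 0.478. The share is high for any pair of genes hit in most tumours, and the 8 tumours without Pou2f1 were shallow (757 to 3945 insertions). The part of hit number and depth in these values was not tested. Auts2 came before other genes of the same value by name.

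Reads were also compared, as the mean log2(reads per 1000000 + 1) on a gene's insertions, since an insertion in more cells gives more reads. On this scale the PB tumours had 5.61 ± 4.04 for Pou2f1 and the PB tails 1.76 ± 3.21 (SD, n = 30 and 12), a difference of 3.85 that did not pass after adjustment (two-sided permutation test, p = 0.00577, adjusted p = 0.139). The difference was 3.14 for Pou2f2 (permutation test, adjusted p = 0.321), 2.94 for Pou2af1 (adjusted p = 0.338), 2.34 for Irf2 (adjusted p = 0.43) and -0.29 for Prdm1 (adjusted p = 0.946), with the permutation test in each case. None of the members passed, where 47 of 3298 genes did (1.43%). Most PB tails were at 0 for each of the 5 genes.

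The number of insertions in each RefSeq gene body was set against the number expected from its share of the target motifs of its chromosome, with a Poisson model and a one-sided Wald test (Bonferroni over all genes, hit in at least 3 samples). This asks whether a gene received more insertions than its sites alone would give. It is the study's selection model without its mutagenesis model, so the preference of PB for open, transcribed chromatin was not corrected for. In PB tumours 1121 of 22558 genes passed (4.97%), and the median of observed over expected was 1.22 among genes with at least 1 expected insertion. Of the 9 members, 5 passed. Pou2f2 had 53 insertions where 2.78 were expected (19-fold, adjusted p = 4.77e-98). Pou2af1 had 25 where 1.93 were expected (12.9-fold, adjusted p = 1.93e-33), Irf2 45 where 5.7 were expected (7.9-fold, adjusted p = 1.21e-39) and Pou2f1 71 where 13.8 were expected (5.15-fold, adjusted p = 2.23e-39). Irf8 had 5 where 0.571 was expected (8.76-fold, adjusted p = 0.0138). The test takes each insertion as independent. It did not hold for Irf8 in an exact Poisson test. When each tumour counted once per gene, the tumours hit were set against the number expected to be hit, from the insertions each tumour had on the chromosome (one-sided exact test, Bonferroni), and 288 genes passed (1.28%). Counted so, Irf2 was hit in 21 tumours where 5.09 were expected (adjusted p = 1.32e-06), Pou2af1 in 13 where 1.86 were expected (adjusted p = 0.000121) and Pou2f1 in 23 where 10.6 were expected (adjusted p = 0.0433), and these 3 passed in the exact test. Pou2f2, in 11 where 2.63 were expected (exact test, adjusted p = 0.446), and Irf8, in 4 where 0.564 was expected (adjusted p = 1), did not. These counts are of RefSeq bodies, which for Pou2f1 and Pou2f2 hold 1 more tumour than the table's gene names. Tumours hit over tumours expected were 4.18 for Pou2f2, 6.99 for Pou2af1, 4.13 for Irf2, 2.16 for Pou2f1 and 7.09 for Irf8. Each was lower than the ratio by insertions, and Pou2f2 was no longer the highest.

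**Figure D4:**
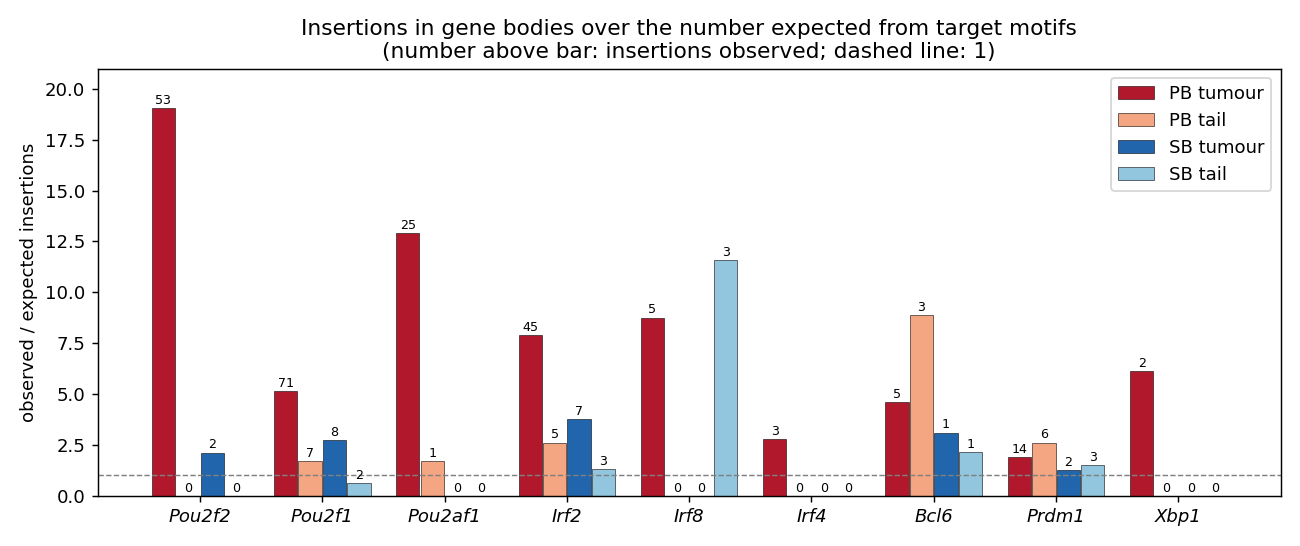
Insertions observed in each gene body over the number expected from its target motifs (vertical axis, from 0) by tissue and system. The number above each bar is the count of insertions observed, and the dashed line is 1. Pou2f2 in PB tumours is the tallest bar at 19, and bars for Irf8 in SB tails (11.6) and Bcl6 in PB tails (8.9) rest on 3 insertions each.

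Bcl6 (5 where 1.09 were expected), Irf4 (3 where 1.08 were expected), Prdm1 (14 where 7.37 were expected) and Xbp1 (2 where 0.326 was expected) did not pass in PB tumours. With Benjamini-Hochberg in place of Bonferroni, 2852 genes passed (12.6%), Bcl6 among them (adjusted p = 0.00367). None of the 5 Bcl6 insertions had 10 reads, and its observed over expected was higher in PB tails (8.9) than in PB tumours (4.59). None of the 9 passed in PB tails, where 282 genes did (1.25%). There Pou2f2 had none where 0.859 was expected, Pou2af1 1 where 0.584 was expected, Irf2 5 where 1.91 were expected and Pou2f1 7 where 4.08 were expected, each a lower ratio than in the tumours. Irf8, Irf4 and Xbp1 had none, where 0.192, 0.356 and 0.0823 were expected. Bcl6 had 3 where 0.337 was expected and Prdm1 6 where 2.3 were expected, which are higher ratios than in the tumours (for Prdm1 2.61 against 1.9). The ratios of tumours and tails were not tested against each other. In SB tumours 95 of 23859 genes passed (0.398%) and none of the members, the nearest being Irf2 with 7 where 1.85 were expected (unadjusted p = 0.000221), which passed with Benjamini-Hochberg (adjusted p = 0.0168), as did 307 genes (1.29%).

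Other genes of the same families and programmes were read from 3 lists. Of the paralogues of the members, 1 could be tested in PB mice and did not pass. It was Pou2f3, the relative of the octamer-binding members that is not a B cell gene, with 8 insertions in 8 PB tumours and 2 in 2 PB tails (log2 difference 0.19, edgeR, adjusted p = 0.903). Irf5, next by tumours hit, had 4 insertions in 4 PB tumours and none in tails. Of 21 genes of the germinal centre programme, 9 were tested in PB and 3 in SB mice, and none passed in either direction. Their median log2 difference in PB mice was 0.61, beside 0.20 over all genes tested. Foxp1, a transcription factor of B cell development, was hit in 29 PB tumours and all 12 PB tails (120 and 32 insertions, log2 difference 0.24, edgeR, adjusted p = 0.76), and Tcf4 (E2-2) in 26 tumours and 10 tails (84 and 27 insertions, log2 difference -0.09, edgeR, adjusted p = 0.921). Foxo1, chosen after its values were seen, had 36 insertions in 21 PB tumours and 2 in 2 PB tails (log2 difference 1.95, edgeR, adjusted p = 0.0631). Of 12 genes of the plasma cell programme, 5 were tested in PB and 1 in SB mice, and none passed. Their median in PB mice was 0.40. Zbtb20, a transcription factor that plasma cells express, had 221 insertions in 29 PB tumours and 49 in 10 PB tails (log2 difference 0.45, edgeR, adjusted p = 0.389), and Ell2, an elongation factor that promotes the secreted form of antibody, had 31 in 19 tumours and 7 in 5 tails (log2 difference 0.40, edgeR, adjusted p = 0.758).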

How the data were processed

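The authors deposited a table with the raw count of reads on each insertion (position and strand) of each sample, with gene names, from splinkerette PCR and 75 bp paired-end sequencing, on GRCm38 (mm10). The aligner, the insertion caller and the read filters were not given in the sources used here. No line had under 2 reads. The table's 1 other per-sample column, a scaled coverage, was not used.

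Positions off the motif (TTAA for PB, TA for SB) were moved to the nearest within 5 bp or left out, and an insertion counted once per sample and position. Chromosome 14, the donor chromosome, and the sex chromosomes were left out. Library size was the sample's number of insertions. Genes with at least 10 insertions were tested with edgeR 4.0.16 in R 4.3.3 (false discovery rate 0.05), with DESeq2 1.42.0 as an alternative. Permutation tests used 100000 resamples, and strand was tested in genes with at least 6 tumours that were not tied. Positions in genes, expected insertions and sequences (10 bases on each side of the motif) came from the RefSeq annotation and sequence of GRCm38, with the longest curated transcript of each gene. Python 3.11.15, pandas 2.3.3 and scipy 1.17.1 were used. Sample names had a joined or a separated form, which can mark a batch. In PB mice both forms were fitted apart. In SB mice all 11 tumours had joined names and 4 tails had separated ones, so only joined names were fitted apart. Replicate numbers only name samples. PCR reads are not independent molecules, and exact intervals cover counting error only.

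The members and lists were chosen with earlier results of these data known. Named genes were the members, from each list any gene that passed and the 2 hit in most PB tumours, and for the member hit in most PB tumours the 3 with the most similar tumours. Foxo1 lies outside this rule and was chosen after its values were seen. With 200 of the PB genes changed 4-fold in simulated data, edgeR found 115 with 4 false calls among 3298 genes, and for SB 141 with 6 among 1121. The other genes of the lists are given only as counts, and 1 result is not reported here. Gene names turned into dates (0.11% of lines) were not used.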

Additional observations from a re-analysis of the deposited data

Results flagged for a closer look

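Insertions inside the Irf8 gene body stood outside the comparisons by gene name, because the table names them Gm20388. There were 5 in PB tumours (4 of 30), and none in the 12 PB tails, which have fewer insertions. In SB mice it was the reverse, with 3 in the tails (2 of 11, 11.6-fold the number expected from the motifs) and none in the 11 tumours, where 0.21 was expected. Neither difference between tumour and tail was tested. The tumour level, 5 of 156899 insertions, is below the level that a count of 0 among 48124 allows (3 insertions). No other stretch of a member's body under another gene name held at least 3 tumour insertions and no tail insertion in the same system.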

How the results depend on the processing

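In PB insertions the direction of the log2 difference was kept under all alternatives that gave a value for Pou2f2, Pou2f1, Pou2af1 and Irf2. Prdm1 turned from -0.40 to 0.45 among insertions of at least 10 reads and to 0.22 among separated names. Of 211 member values under an alternative, 181 were counted as keeping direction and side of the threshold, 13 lost a call and 4 gained one. The other 13 changed sign, none of them with a call under either setting. A strand excess that moved to or from 0 was counted as kept (with at least 10 reads, Prdm1 from 1 to 0 and Pou2f1 from 0 to -1). An observed over expected that fell to 0 was counted as a change of sign. The cause of these changes was not tested. DESeq2 gave no adjusted p for Pou2af1 and Prdm1. Leaving out the SB sample with most Irf2 insertions left too few to test. No analysis paired by mouse was possible because replicate numbers only name samples and each mouse gave 1 sample. Some sample names share a leading code across tumours and tails, and a block on that code was not fitted.

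The number of genes called in PB insertions was 147, against 86 with DESeq2, 7 with Fisher's exact test, 71 without the filter, and 33 with joined and 28 with separated names, where fewer samples entered. In SB it was 9, against 2 with DESeq2, 1 with Fisher's exact test and 27 with all chromosomes. The interaction called 0, and 1 with at least 10 reads or without the filter. For reads in PB it was 47, against 18 without the filter and 86 with a pseudocount of 10. The test against the number expected from motifs called 1121 genes in PB tumours. Alternatives called 2852 with Benjamini-Hochberg, 480 with at least 10 reads, 646 with the exact test and 428 by presence. In SB tumours the test called 95 genes. There the alternatives called 307, 67, 33 and 12, in the same order. By tumours expected to be hit, 288 genes passed in PB tumours and 4 in SB tumours. Presence sets a count of at most 30 tumours against expected insertions, so that Pou2f1 could not pass there (smallest adjusted p possible 0.227). The test against tumours expected to be hit counts tumours on both sides and was chosen after seeing the data.

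Among the values that changed sign, the interaction for Prdm1 turned from -0.18 to 0.14 with DESeq2, 0.18 with TMM and 0.52 with at least 10 reads. That for Pou2f1 turned to -0.23 with RefSeq bodies and that for Irf2 to -1.08 with at least 10 reads. The excess of tumours with the gene's strand turned from -1 to 1 for Pou2af1 and to 2 for Pou2f2 with at least 10 reads, and for Pou2f2 to 6 by the most covered insertion. With at least 10 reads, observed over expected fell to 0 for Bcl6 in PB and SB tumours and for Xbp1 in PB tumours, where no insertion was left.

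Few insertions were expected in the smallest genes. Xbp1 was expected to receive 0.326 insertions over all PB tumours and 0.0833 over all SB tumours, and Irf4 1.08 and 0.289. Both were absent from SB tumours, and the part of depth in that was not tested.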
